A study of Homo sapiens with 9 samples.

Results

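Chemokines are small secreted or membrane-anchored proteins that direct the movement of leukocytes, and 10 of them were followed in RNA sequencing of MDA-MB-231 cells after knockdown of the aryl hydrocarbon receptor gene AHR. They were taken by gene symbol from the count table: CXCL1, CXCL2, CXCL3, CXCL5, CXCL8, CXCL10, CXCL16, CCL2, CCL5 and CCL20, that is 10 of 60649 genes listed. MDA-MB-231 is a widely used, established line of human mammary epithelial cells from a triple-negative breast cancer, a class defined by the lack of estrogen and progesterone receptors and of HER2 amplification. The 9 libraries fell into 3 groups of 3: cells with the vector pLKO-GFP as control, cells with the short hairpin RNA shAHR#2 and cells with shAHR#3. All groups were the same line in the same medium, transduced with lentivirus, selected with puromycin and kept as pools of surviving cells rather than as clones. The labels name no drug or time point. They number the hairpins #2 and #3, whereas the study's methods number its AHR hairpins #1 and #2, so the hairpin sequence behind each label was not assigned here.

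The CXC chemokines CXCL1, CXCL2, CXCL3, CXCL5 and CXCL8 carry the ELR motif before their first cysteines, bind CXCR2 (CXCL8 also CXCR1) and attract neutrophils. Their genes are classical targets of NF-kB, which is switched on by interleukin-1 and tumor necrosis factor, and their mRNAs are short-lived because of AU-rich elements in the 3′ UTR. CXCL10 lacks the ELR motif, is induced by interferons and attracts T cells through CXCR3. CXCL16 is made as a transmembrane protein that is shed by ADAM10 and binds CXCR6. CCL2, CCL5 and CCL20 attract monocytes, T cells and CCR6-bearing cells, respectively.

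The promoters of the ELR genes are shown first because they hold a shared letter string that is also present in CXCL10. RefSeq promoter sequences (GRCh38.p14) were matched by symbol for 7 of the 10 chemokines, and the 250 bases before each RefSeq start were searched on both strands. The letters GGAATTTCC, called the NF-kB core here, were found in 6 of the 7, namely CXCL1, CXCL2, CXCL3, CXCL5, CXCL8 and CXCL10. They were also found in 0.413% of 35116 promoters of the same length. No test compared these shares, and the matches of the close paralogs CXCL1, CXCL2 and CXCL3 are not independent. The CXCL10 copy is on the opposite strand. This fixed string does not stand for NF-kB sites in general, whose degenerate consensus was in 9.96% of all promoters. CXCL8 held the core but had 0 matches of that consensus. In the 30-base stretches below, chosen after the values were seen, capitals mark that core.
CXCL1 (chr4:73869305-73869334, plus strand): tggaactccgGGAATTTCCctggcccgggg
CXCL2 (chr4:74099253-74099282, minus strand): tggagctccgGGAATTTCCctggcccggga
CXCL3 (chr4:74038748-74038777, minus strand): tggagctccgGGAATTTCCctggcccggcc
CXCL5 (chr4:73998748-73998777, minus strand): atgagttcagGGAATTTCCccagcatccca
CXCL8 (chr4:73740468-73740497, plus strand): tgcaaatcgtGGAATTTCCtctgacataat
CXCL10 (chr4:76023654-76023683, minus strand): aggagcagagGGAAATTCCgtaacttggag
The bases around the core were nearly the same in CXCL1, CXCL2 and CXCL3 and differed in the other genes. The core began 78, 77 and 78 bases before the RefSeq start in CXCL1, CXCL2 and CXCL3, 90 in CXCL5, 91 in CXCL8 and 176 in CXCL10. A letter match is a description of the sequence and not evidence of binding.

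The CXCL8 promoter is printed because CXCL8 had, with shAHR#2, the largest fitted change against the control among the 5 of the 10 that were tested, and that of CXCL10 because this gene stands for the interferon-inducible group. Capitals mark the AP-1 motif TGANTCA and the NF-kB core in CXCL8, and in CXCL10 the interferon response motif GAAANNGAA and 2 matches of the degenerate NF-kB consensus, the first of which overlaps the core.
CXCL8 (chr4:73740319-73740518, plus strand): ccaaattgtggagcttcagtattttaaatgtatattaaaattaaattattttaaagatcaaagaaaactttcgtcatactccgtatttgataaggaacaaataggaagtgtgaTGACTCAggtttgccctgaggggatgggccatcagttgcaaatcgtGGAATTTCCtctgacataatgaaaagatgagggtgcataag
CXCL10 (chr4:76023498-76023747, minus strand): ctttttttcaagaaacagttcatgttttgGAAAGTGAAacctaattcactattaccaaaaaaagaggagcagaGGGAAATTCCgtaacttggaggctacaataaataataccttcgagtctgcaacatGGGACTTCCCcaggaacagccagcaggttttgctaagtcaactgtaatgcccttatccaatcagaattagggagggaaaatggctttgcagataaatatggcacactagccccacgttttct
The AP-1 motif was in 1 of the 7 promoters (CXCL8) and in 6.57% of all promoters. The interferon response motif was in 3 of the 7 (CXCL2, CXCL3 and CXCL10) and in 6.88% of all. The degenerate NF-kB consensus was in 6 of the 7 and in 9.96% of all, and in CXCL1, CXCL2, CXCL3, CXCL5 and CXCL10 it overlapped the core. The letters GCGTG, the core of the element that AHR binds, were in 2 of the 7 (CXCL5 and CCL20) and in 32.2% of all, and these letters are not in the 250-base windows of CXCL1, CXCL2, CXCL3, CXCL8 or CXCL10.

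Libraries held from 15991396 to 20374460 counted reads. AHR itself, the targeted gene, was at 114, 118 and 121 CPM (TMM-normalized counts scaled to the library size) in the control libraries, at 42.5, 40.4 and 41.9 with shAHR#2, and at 46.3, 52.1 and 44.5 with shAHR#3. It fell by 1.5 on the log2 scale with shAHR#2 (standard error, SE, 0.048; adjusted p = 1.05e-25) and by 1.31 with shAHR#3 (SE 0.0457; adjusted p = 4.95e-24). These and all adjusted p-values below are from edgeR's quasi-likelihood test over 14274 genes, adjusted by Benjamini-Hochberg, with calls made under 0.05. Nothing in the sources used here says whether replicates were separate cultures, so the p-values measure the spread between these libraries, which may be technical. Both constructs were compared with the same 3 control libraries. The labelled line was checked by its markers: VIM, CD44, KRT8 and KRT18 summed to between 4010 and 5230 CPM, PGR was at 0 in every library and ESR1 had 0 to 4 reads. ERBB2, which encodes HER2, and the epithelial gene EPCAM were detected, with 974 to 1550 and 90 to 135 reads per library.

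Of the 10 chemokines, 5 passed the filter on low counts and were tested: CXCL1, CXCL2, CXCL3, CXCL8 and CXCL16. With shAHR#2, 5 of these 5 rose, where 32.6% of all genes tested were called higher, 33.2% lower and 65.8% in either direction. With shAHR#3, 4 of the 5 rose and CXCL2 did not pass the test, where 26.9% of all genes were called higher, 27.5% lower and 54.4% in either direction. Their median log2 fold change was 2.04 with shAHR#2 and 1.19 with shAHR#3, whereas the medians over all genes tested were -0.00323 and -6.88e-05. The other 5 chemokines were near the limit of detection, and the filter keeps a gene that is high in only 1 group, so the 5 tested are not a sample of all 10. In every control library CXCL3 and CXCL16 had fewer than 10 reads, the minimum count of the filter. They passed it through the knockdown libraries, so the counts of rises that include them are a description only. Both medians of the 5 are the values of CXCL16. In bulk RNA, fewer cells of a type and less RNA per cell cannot be told apart.

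CXCL8, also known as interleukin-8 and the best-known neutrophil attractant, was the most highly counted of the 10 in every library. It had 173, 189 and 177 reads in the control libraries, 924, 798 and 711 with shAHR#2, and 391, 428 and 414 with shAHR#3. After normalization these were 9.77, 9.44 and 8.96 CPM, then 49.6, 51.2 and 45.0 CPM, then 20.1, 21.9 and 20.2 CPM. The 3 groups did not overlap, with the control lowest and shAHR#2 highest. The CXCL8 level was 5.18-fold higher with shAHR#2 (log2 fold change 2.37, SE 0.0765, adjusted p = 1.32e-25) and 2.21-fold higher with shAHR#3 (1.14, SE 0.0837, adjusted p = 1.96e-14).

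CXCL1, the prototype of the GRO chemokines, showed the same order of groups. It was counted at 53, 53 and 70 reads in the control, 282, 239 and 253 with shAHR#2, and 159, 177 and 177 with shAHR#3. In CPM the means were 3.06 ± 0.453, 15.5 ± 0.459 and 8.63 ± 0.439 (SD, n = 3 each), and no library of one group reached the range of another. CXCL1 was thus 5.05-fold higher with shAHR#2 (log2 fold change 2.34, SE 0.122, adjusted p = 4.03e-19) and 2.81-fold higher with shAHR#3 (1.49, SE 0.131, adjusted p = 2.46e-12).

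CXCL2 and CXCL3 are close paralogs of CXCL1 on the same chromosome. The CPM of CXCL2 was 1.98, 1.95 and 2.89 in control libraries, 4.13, 3.47 and 3.80 in shAHR#2 libraries, and 2.06, 2.97 and 1.22 in shAHR#3 libraries. Each shAHR#2 library was above every other library, whereas the shAHR#3 values lay on both sides of the control. CXCL2 rose by 0.74 on the log2 scale with shAHR#2 (SE 0.224, adjusted p = 0.00407). With shAHR#3 its log2 fold change was -0.14 (SE 0.242, adjusted p = 0.663; 95% interval -0.61 to 0.34), and this value turned positive without pLKO-GFP replicate 3 (0.078) or without shAHR#3 replicate 3 (0.14).

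CXCL3 had far fewer reads. It was counted at 4, 6 and 4 in the control, 19, 19 and 12 with shAHR#2, and 14, 12 and 16 with shAHR#3. Both knockdown groups lay above the control and overlapped each other. CXCL3 rose by 2.01 on the log2 scale with shAHR#2 (SE 0.438, adjusted p = 1.28e-04) and by 1.51 with shAHR#3 (SE 0.455, adjusted p = 0.00499). It passed the filter on low counts through the knockdown libraries.

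The GRO paralogs share short stretches of sequence that a read can match more than once. Of the 75-base windows of their canonical transcripts, 0.273% of CXCL1, 2.5% of CXCL2 and 2.3% of CXCL3 were identical to a window of another gene, so the split of reads among them is uncertain to that extent. Summed into 1 feature, they had 92, 98 and 131 reads in the control, 378, 312 and 325 with shAHR#2, and 213, 247 and 218 with shAHR#3. This sum, which does not depend on how reads were divided, rose by 1.86 on the log2 scale with shAHR#2 (SE 0.106, adjusted p = 5.81e-18) and by 1.03 with shAHR#3 (SE 0.113, adjusted p = 6.87e-10).

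The ratio of CXCL1 to CXCL2 reads within a library differed between control and knockdown. On the log2 scale it was 0.599, 0.443 and 0.296 in the control, 1.87, 2.15 and 2.08 with shAHR#2, and 1.99, 1.61 and 2.82 with shAHR#3, so no knockdown library overlapped the control. The exact two-sided permutation test gave p = 0.1 for each construct, the smallest value that 3 against 3 libraries allow, and an adjusted p of 0.267 over the 8 ratio comparisons made. By contrast, the log2 ratio of CXCL8 to CXCL1 averaged 1.63 ± 0.258 in the control and 1.65 ± 0.136 with shAHR#2 (SD, n = 3 each; exact permutation p = 0.8). With shAHR#3 it was 1.30, 1.27 and 1.23, below each control library (exact permutation p = 0.1, adjusted 0.267).

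CXCL16, the transmembrane chemokine, was counted at 3, 9 and 9 reads in the control, 28, 24 and 24 with shAHR#2, and 11, 16 and 23 with shAHR#3. In CPM the groups were at 0.358 ± 0.164, 1.52 ± 0.0198 and 0.836 ± 0.279 (SD, n = 3 each) and did not overlap. CXCL16 rose by 2.04 on the log2 scale with shAHR#2 (SE 0.383, adjusted p = 1.56e-05) and by 1.19 with shAHR#3 (SE 0.416, adjusted p = 0.0148). Like CXCL3, it passed the filter on low counts through the knockdown libraries. The call with shAHR#3 rested on single libraries: it was lost without pLKO-GFP replicate 1, the control library with 3 reads (log2 fold change 0.88, adjusted p = 0.0951), and without shAHR#3 replicate 3, the highest of its group (0.91, adjusted p = 0.115).

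**Figure D1:**
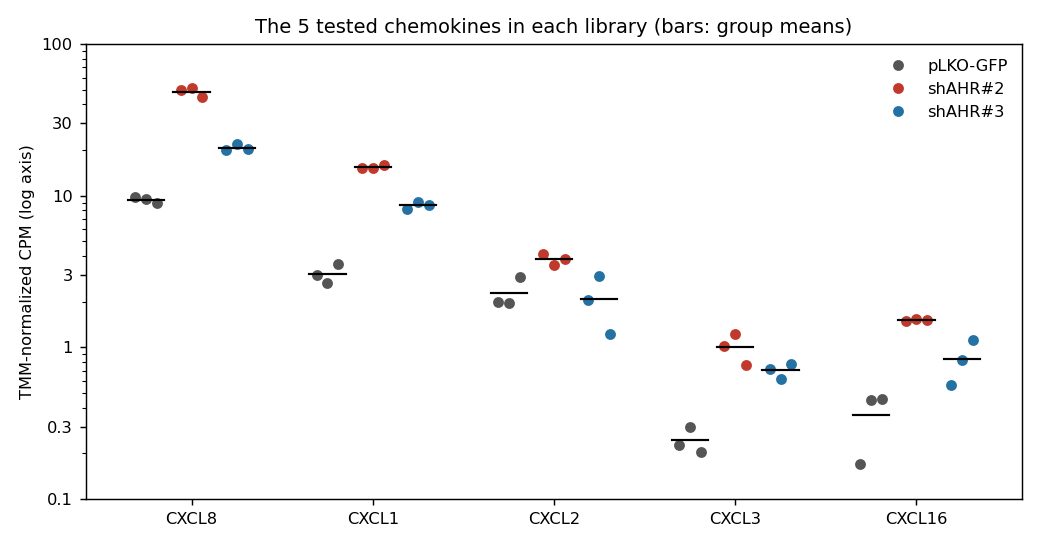
Level of the 5 tested chemokines in each of the 9 libraries, as TMM-normalized CPM on a log axis; points are libraries and bars are group means (n = 3). CXCL8, CXCL1 and CXCL16 form 3 separate groups with pLKO-GFP lowest and shAHR#2 highest, while the shAHR#3 points of CXCL2 lie around the control.

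Levels of different genes were compared only per length, as CPM per kilobase of merged exons. In the control CXCL8 stood at 3.63, CXCL1 at 2.25, CXCL2 at 1.62, CXCL16 at 0.128 and CXCL3 at 0.109 CPM per kb. CXCL8 stayed first in the knockdown groups, at 18.8 with shAHR#2 and 8.01 with shAHR#3, ahead of CXCL1 at 11.4 and 6.33. CXCL16 and CXCL3 were neighbours in the order and their spreads overlapped in the control. Their order turned with canonical transcript lengths (0.154 for CXCL16 and 0.226 for CXCL3 in the control) and, with merged exons, in shAHR#3 libraries (0.299 and 0.318), so no order is read between them. The ratio of CXCL8 to CXCL1 per kb in the control was 1.64 with merged exons and 2.23 with canonical transcript lengths. Without length correction, the share of the 10 chemokines' reads that CXCL8 held was 61.0% ± 4.78 in control, 68.7% ± 1.71 in shAHR#2 and 62.1% ± 1.15 in shAHR#3 libraries (SD, n = 3 each). All 10 together had 270 to 319 reads in a control library, 1065 to 1335 in a shAHR#2 library and 621 to 704 in a shAHR#3 library.

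The constructs were then compared directly, since both lower AHR. Of the 5 chemokines tested, 4 were lower with shAHR#3 than with shAHR#2 and CXCL3 did not pass the test. Over all genes tested, 42.3% were called between the constructs, 20.4% lower and 21.9% higher with shAHR#3. The median of the 5, which is the value of CXCL16, was -0.851 on the log2 scale, against 0.00677 over all genes tested. CXCL8 differed most, at -1.23 (SE 0.067, adjusted p = 7.04e-18), with CXCL2 at -0.88 (SE 0.227, adjusted p = 0.00168) and CXCL1 at -0.84 (SE 0.101, adjusted p = 7.33e-09). CXCL3 gave -0.50 (SE 0.352, adjusted p = 0.271), with a 95% interval from -1.19 to 0.19. CXCL16 gave -0.85 (SE 0.324, adjusted p = 0.032). That call was lost with DESeq2 (adjusted p = 0.0812) and without any one of shAHR#2 replicates 1, 2 and 3 or shAHR#3 replicates 1 and 2 (adjusted p from 0.0697 to 0.166). AHR was 0.19 higher on the log2 scale with shAHR#3 than with shAHR#2 (SE 0.0531, adjusted p = 0.00283), and the part of this difference in the chemokine values was not tested.

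**Figure D2:**
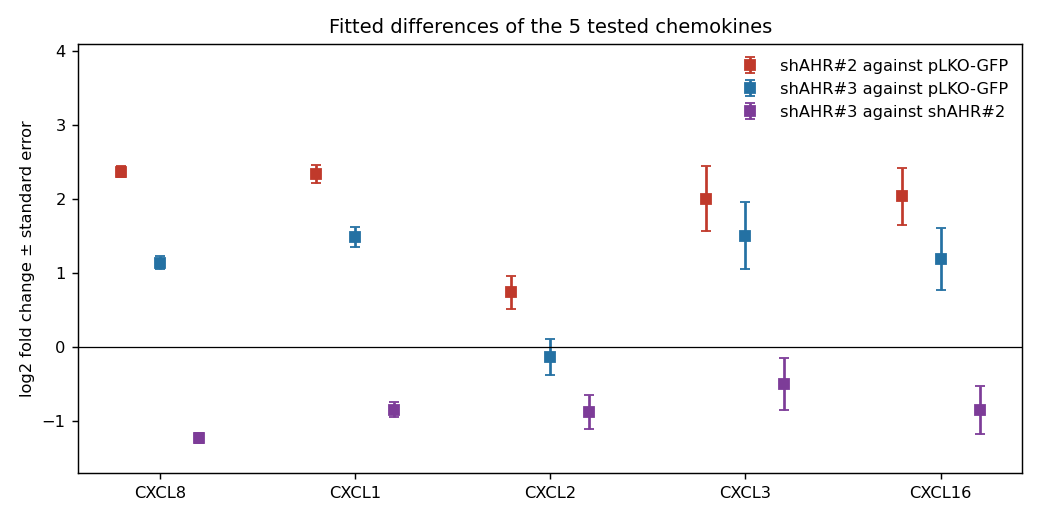
Fitted log2 fold changes of the 5 tested chemokines in 3 comparisons, with standard errors as bars. Against the control CXCL8 reaches 2.37 and 1.14 and CXCL2 0.74 and -0.14, and the direct comparison of the constructs is below 0 for each gene, without passing the test for CXCL3.

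The remaining ELR chemokine, CXCL5, had 0 reads in each control library, 0, 0 and 2 with shAHR#2, and 0, 3 and 0 with shAHR#3. Its promoter holds the same NF-kB core as those of CXCL1, CXCL2, CXCL3 and CXCL8. A count of 0 allows up to 3 reads, which is 0.146 to 0.193 CPM in these libraries, so no difference in CXCL5 was detectable at this depth. Reads carry no molecular identifiers, so this limit and the intervals below cover counting error only.

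CXCL10, the interferon-inducible chemokine, had 0, 1 and 1 reads in the control, 2, 0 and 0 with shAHR#2, and 3, 4 and 5 with shAHR#3. Each shAHR#3 library was thus above every other library, by as little as 1 read. The summed counts were 12 with shAHR#3 and 2 in the control, a ratio of 5.80 after scaling to library size with an exact 95% counting interval from 1.29 to 53.4. The exact two-sided permutation test of the CPM gave p = 0.1, the smallest possible. With no filter on low counts, CXCL10 did not pass edgeR's test (adjusted p = 0.158 over 26301 genes).

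The 3 CC members, CCL2, CCL5 and CCL20, were at the limit of detection throughout. CCL2 had 1, 0 and 1 reads in the control, 0 in each shAHR#2 library, and 1, 2 and 2 with shAHR#3. CCL5 had 0 in each control library, 1, 1 and 2 with shAHR#2, and 1, 3 and 0 with shAHR#3. CCL20 had 1, 1 and 0 in the control, 2, 4 and 1 with shAHR#2, and 1, 1 and 0 with shAHR#3. The most reads any library held for a CC member were thus the 4 of CCL20 in shAHR#2 replicate 2. Of the CCL5 windows of 75 bases, 9.8% also occur in other genes, so its few reads are uncertain. None of the 5 low chemokines passed the edgeR test without a filter (0 of 5 at an unadjusted p under 0.05 as well), and the smallest adjusted p against the control was 0.149, for CCL5 with shAHR#2.

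**Figure D3:**
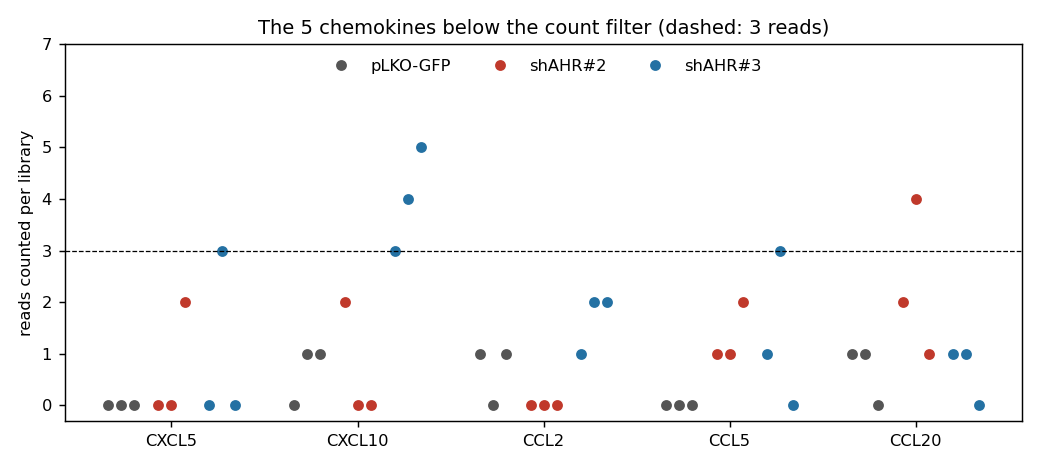
Reads per library of the 5 chemokines below the count filter; points are libraries and the dashed line marks 3 reads, the limit that a count of 0 allows. The 3 shAHR#3 libraries of CXCL10 hold 3, 4 and 5 reads, and most other points lie at 0 to 2.

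Other chemokine ligands were examined as a list of 34 genes, of which 4 passed the filter. CX3CL1, or fractalkine, the other membrane-anchored chemokine, fell with both constructs. It had 40, 42 and 57 reads in the control, 4, 12 and 4 with shAHR#2, and 14, 21 and 17 with shAHR#3, so that the groups did not overlap. It fell by 2.57 on the log2 scale with shAHR#2 (adjusted p = 7.77e-08) and by 1.46 with shAHR#3 (adjusted p = 6.45e-05). CCL28, a mucosal epithelial chemokine, fell by 0.63 with shAHR#2 (adjusted p = 2.54e-05) and had a log2 fold change of -0.22 with shAHR#3 (adjusted p = 0.092). The eotaxin-like CCL24 and CCL26 had log2 fold changes of 0.60 and 0.50 with shAHR#2 and 0.80 and 0.73 with shAHR#3, without passing the test (adjusted p from 0.147 to 0.335). None of the 4 was called higher with either construct, where 32.6% (shAHR#2) and 26.9% (shAHR#3) of all genes tested were. Among the untested ligands, the interferon-inducible CXCL9 was at 0 in every library and CXCL11 had 0 to 6 reads.

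Receptors for these ligands were mostly not detected. CXCR1 and CXCR2, which bind the ELR chemokines, and CXCR3, which binds CXCL10, were at 0 in every library. CXCR6, the receptor of CXCL16, had at most 1 read. Of 23 receptor genes, 4 passed the filter. CXCR4, which binds CXCL12, had 17, 15 and 19 reads in the control, 34, 23 and 36 with shAHR#2, and 19, 15 and 22 with shAHR#3. It rose by 1.06 on the log2 scale with shAHR#2 (adjusted p = 0.00198), and its log2 fold change with shAHR#3 was 0.083 (adjusted p = 0.847). ACKR3, a scavenging receptor for CXCL12, had 11, 13 and 10 reads in the control, 0, 0 and 1 with shAHR#2, and 3, 3 and 2 with shAHR#3. Its level was 0.0338 times the control with shAHR#2 (exact 95% counting interval 0.000831 to 0.201; adjusted p = 1.76e-05 from edgeR) and 0.227 times with shAHR#3 (0.091 to 0.501; adjusted p = 0.00178). ACKR3 passed the filter on low counts only through the control libraries, so these values are a description only. The exact two-sided permutation test of its CPM gave p = 0.1 for each construct. CCR1 and CCRL2 did not pass the test with either construct (adjusted p from 0.0823 to 0.666).

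Among 25 transcription regulators of chemokine genes, 24 were tested. With shAHR#2, 11 rose, 9 fell and 4 did not pass the test (median log2 fold change 0.14), and with shAHR#3 9 rose, 7 fell and 8 did not (median 0.0555). These counts and those of the lists that follow stand beside 65.8% of all genes tested called with shAHR#2 (32.6% higher, 33.2% lower) and 54.4% with shAHR#3 (26.9% higher, 27.5% lower). The largest shared rises were those of NFKBIZ, an NF-kB cofactor that is itself an NF-kB target, at 1.42 and 0.73 (adjusted p = 1.59e-21 and 3.31e-12), and of NFKBIA, the inhibitor that NF-kB induces to end its own activity, at 0.80 and 0.68 (adjusted p = 4.14e-19 and 1.17e-16). BCL3, an atypical IkB protein, rose by 0.40 and 0.72. TBK1, a kinase that activates interferon genes, fell by 0.66 and 0.20, and the inhibitor NFKBIB fell by 0.57 and 0.40. TNFAIP3 and the genes of the NF-kB subunits were outside the rule for named genes and moved unevenly. TNFAIP3 rose by 0.61 with shAHR#2 (adjusted p = 3.19e-06) and fell by 0.49 with shAHR#3 (adjusted p = 4.32e-04). NFKB2 rose by 0.31 and 0.16 (adjusted p = 5.07e-06 and 0.00891). RELB and REL rose by 0.67 and 0.44 with shAHR#2 (adjusted p = 9.37e-07 and 0.00103). With shAHR#3 their values were 0.091 and 0.021 (adjusted p = 0.513 and 0.895). NFKB1 was at -0.027 with shAHR#2 (adjusted p = 0.609) and fell by 0.15 with shAHR#3 (adjusted p = 0.00339). RELA did not pass the test, at -0.086 (adjusted p = 0.0637) and -0.026 (adjusted p = 0.6).

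Of 17 cytokines and receptors that act upstream of chemokine genes, 14 were tested. Counted by direction, 6 rose and 5 fell with shAHR#2 (median 0.101), and 6 rose and 3 fell with shAHR#3 (median 0.00294). TNFRSF1A, the main receptor for tumor necrosis factor, rose from 132 ± 1.24 CPM to 307 ± 3.79 (shAHR#2) and 274 ± 9.85 (shAHR#3; SD, n = 3 each; edgeR adjusted p = 4.81e-29 and 1.52e-26). The gene of the factor itself, TNF, had 0 reads in every library. LTBR, the lymphotoxin receptor, rose by 0.53 and 0.67, and IFNGR1, a chain of the interferon-gamma receptor, by 0.38 and 0.55. IL1RAP, the co-receptor for interleukin-1, fell by 0.62 and 0.21, and IFNAR2, a chain of the type I interferon receptor, fell by 0.35 and 0.36.

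The cytokine genes IL1A, IL1B and IL6 were outside the rule for named genes and were picked after their values were seen. For IL1B the mean CPM was 0.626 ± 0.0299 among control libraries, 2.43 ± 0.897 among shAHR#2 libraries and 0.52 ± 0.139 among shAHR#3 libraries (SD, n = 3 each). It rose by 1.94 on the log2 scale with shAHR#2 (adjusted p = 2.02e-06), and with shAHR#3 its log2 fold change was -0.26 (adjusted p = 0.616). IL1A was near the floor in the other groups, with 0, 4 and 7 reads in the control and 0, 8 and 2 with shAHR#3, and passed the filter through the 32, 34 and 28 reads of the shAHR#2 libraries, so no fold is given for it. IL6 had the opposite pattern, with a log2 fold change of 0.094 for shAHR#2 (adjusted p = 0.614) and a rise of 1.06 with shAHR#3 (adjusted p = 2.04e-08). The direct comparison of shAHR#3 with shAHR#2 gave -2.20 for IL1B and 0.97 for IL6 (adjusted p = 7.92e-07 and 3.04e-07).

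The 3′ UTRs of the ELR chemokines are rich in the pentamer AUUUA, the unit of AU-rich elements. It occurs 10 times in the 716 bases of the CXCL2 3′ UTR, 9 times in the 1252 of CXCL8, 7 times in the 673 of CXCL3, 6 times in the 772 of CXCL1 and 11 times in the 1995 of CXCL5. Per base, 0.563% of 19550 coding genes have at least as many as CXCL2, 1.19% as CXCL3, 2.71% as CXCL1, 3.5% as CXCL8 and 7.42% as CXCL5. CXCL16 has 1 such pentamer in 970 bases, and 57.8% of coding genes have at least as many per base. Pentamer density was not set against the changes, as only 5 chemokines were tested. Of these, CXCL3 and CXCL16 passed the filter on low counts through the knockdown libraries. Decay of the mRNAs was not measured, and any part of the pentamers in the chemokine values was not tested.

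The 12 factors that act on such mRNAs were all tested. With shAHR#2, 6 rose and 4 fell (median 0.0946), and with shAHR#3, 2 rose and 6 fell (median -0.0806). ZC3H12A, the endonuclease Regnase-1 that degrades cytokine mRNAs, rose by 0.53 and 0.37 (adjusted p = 0.00253 and 0.0355), and CNOT1, the scaffold of the deadenylase complex, rose by 0.25 and 0.10. MAPKAPK2, the kinase that inactivates tristetraprolin, fell by 0.82 and 0.17 (adjusted p = 1.65e-21 and 3.4e-05). The mRNA-destabilizing proteins ZFP36L2 and HNRNPD fell by 0.65 and 0.18, and by 0.29 and 0.22, respectively. ZFP36, which encodes tristetraprolin and was outside the rule for named genes, did not pass the test, at 0.077 (adjusted p = 0.566) and 0.17 (adjusted p = 0.193).

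Of 13 proteases and proteoglycans that cut or hold chemokine proteins, 10 were tested. With shAHR#2, 5 rose and 4 fell (median 0.0665), and with shAHR#3, 5 rose and 3 fell (median 0.106). MMP1, an interstitial collagenase, fell by 3.58 and 4.17 (adjusted p = 1.41e-15 and 1.11e-16), and the proteoglycan SDC1 fell by 0.30 and 0.31. MMP14, a membrane-bound metalloproteinase, rose by 1.14 and 0.25 (adjusted p = 2.67e-30 and 3.18e-10). SDC3, a heparan sulfate proteoglycan, rose by 0.70 and 0.55, and the sheddase ADAM17 by 0.14 and 0.22. ADAM10, named outside the rule because it sheds CXCL16 and CX3CL1, had a log2 fold change of -0.0083 with shAHR#2 (adjusted p = 0.811). It rose by 0.11 with shAHR#3 (adjusted p = 7.01e-04).

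**Figure D4:**
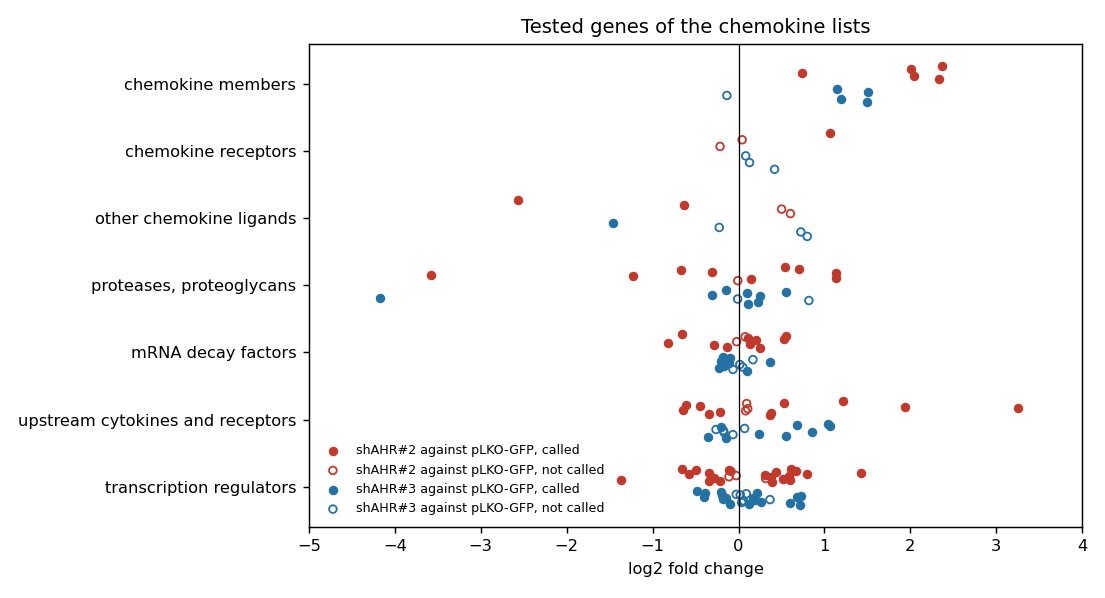
Log2 fold change of each tested gene in the chemokine lists with shAHR#2 (red) and shAHR#3 (blue) against pLKO-GFP; filled points passed the test and open points did not, and ACKR3 is left out because its knockdown libraries hold 0 to 3 reads. The lists other than the chemokine members spread on both sides of 0, with medians between -0.09 and 0.25.

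Of the 10 chemokine genes, 6 lie on chromosome 4 within a few megabases. In GENCODE 44 on GRCh38 they are CXCL8 (73740519 to 73743716, plus strand), CXCL1 (73869393 to 73871308, plus), CXCL5 (73995642 to 73998677, minus), CXCL3 (74036589 to 74038807, minus), CXCL2 (74097040 to 74099196, minus) and CXCL10 (76021118 to 76023497, minus). CXCL16 (4733533 to 4739928, minus), CCL2 (34255274 to 34257208, plus) and CCL5 (35871491 to 35880793, minus) are on chromosome 17, and CCL20 (227805739 to 227817564, plus) is on chromosome 2. The rises called were in the chromosome 4 cluster and in CXCL16 on chromosome 17. CXCL16 was the only tested member outside the cluster and passed the filter on low counts through the knockdown libraries. As given above, its rise was not called in every fit that left out a library. Its rise is therefore a description only, and whether the rises depend on position was not tested.

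Neighbouring genes moved in both directions. Within 1 Mb of the chromosome 4 members, 20 other genes were tested. With shAHR#2, 3 of them rose, 14 fell and 3 did not pass the test (median -0.456), and with shAHR#3 5 rose, 12 fell and 3 did not (median -0.225). Over all genes tested, the shares called higher were 32.6% (shAHR#2) and 26.9% (shAHR#3), and those called lower 33.2% and 27.5%. MTHFD2L, the tested gene next to CXCL2, did not pass the test, with values of -0.12 (adjusted p = 0.613) and -0.43 (adjusted p = 0.0748). Further along lie 3 tested genes for ligands of the epidermal growth factor receptor, named after their values were seen. EREG rose by 1.59 and 1.45 (adjusted p = 3.79e-28 and 2.15e-26). AREG fell by 0.89 with shAHR#2 and rose by 0.27 with shAHR#3, and BTC rose by 0.95 with shAHR#2 and had a log2 fold change of -0.014 with shAHR#3 (adjusted p = 0.951).

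**Figure D5:**
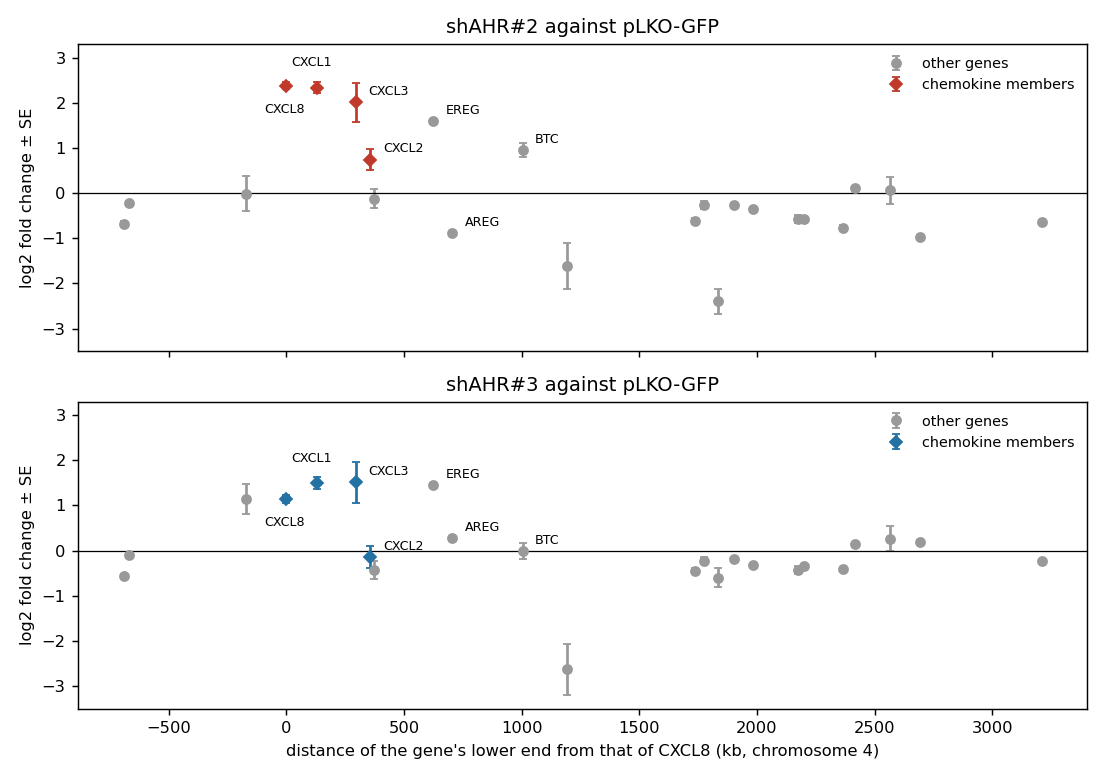
Log2 fold change (bars are standard errors) of the tested genes around the chromosome 4 chemokines, by distance in kb from CXCL8, for shAHR#2 (top) and shAHR#3 (bottom) against pLKO-GFP. The chemokine diamonds CXCL8, CXCL1 and CXCL3 lie above 1 in both panels while most of the 20 grey neighbours lie below 0.

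The genes whose pattern over the 9 libraries was most like that of CXCL8 were sought among the tested genes whose average log2 CPM reached 1. The measure was the root mean square difference of log2 CPM relative to the control mean. PLAT, which encodes tissue plasminogen activator, was closest at 0.119 log2 units, with log2 fold changes of 2.24 and 0.99. RGS17, a regulator of G protein signaling, followed at 0.152 and ADIRF at 0.154. No chemokine was among these 3, but CXCL3, CXCL16 and the untested chemokines were below the level searched and could not appear.

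Markers of other cell types moved with the knockdown groups at low levels. Summed over the 8 leukocyte markers, control libraries held 3.9 to 5.42 CPM, shAHR#2 libraries 5.63 to 7.29 and shAHR#3 libraries 6.4 to 6.69. The defining lymphocyte markers CD3E, MS4A1 and NKG7 were at 0 in every library, while PTPRC had 1 to 4 reads in the control, 14 to 33 with shAHR#2 and 14 to 30 with shAHR#3. The other 3 tested markers were of myeloid cells and moved both ways. LYZ rose with both constructs, by 2.46 (adjusted p = 2.75e-09) and 1.67 (adjusted p = 2.43e-05). CD14 and CSF1R fell with shAHR#2, by 1.40 and 0.78 (adjusted p = 0.00348 and 0.00316), and did not pass the test with shAHR#3, at -0.58 and 0.15 (adjusted p = 0.17 and 0.54). The 4 endothelial markers summed to 2.2 to 2.77, 10.4 to 12.7 and 12 to 13.4 CPM, nearly all from PECAM1. The other endothelial markers, VWF, CDH5 and TIE1, had at most 12 reads in any library and VWF and CDH5 were at 0 in the control. The 4 fibroblast markers summed to 5.49 to 7.85, 9.12 to 11.3 and 11.6 to 14 CPM, mostly from COL1A1, with PDGFRA at 0 to 2 and DCN at 0 to 1 reads. The part of these transcripts in the chemokine values was not tested.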

How the data were processed

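Stranded single-end mRNA libraries of 9 MDA-MB-231 samples were analysed. Per the labels and the submitters' processing notes, reads were checked with FastQC, aligned to GRCh38.p13 with STAR and counted with featureCounts (Subread). Versions, the annotation release and the strand setting of the counting are not given in the sources used here, so antisense and overlapping genes are uncertain. The values deposited by the authors are raw counts, whole numbers of reads for each gene.

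Counts were analysed with R 4.3.3 and edgeR 4.0.16: filterByExpr (minimum count 10, minimum total 15), TMM scaling, and a single quasi-likelihood fit (glmQLFit, glmQLFTest) of the 3 group means over all 9 libraries, unblocked. Benjamini-Hochberg adjustment covered all 14274 genes tested, which held 99.9% of counts. Each standard error is the absolute log2 fold change divided by the square root of F, and intervals are 1.96 standard errors. The study itself used DESeq2, which was run here (1.42.0) as an alternative. The fits were tested on simulated data for shAHR#2 against pLKO-GFP with 200 changed genes. There edgeR recovered 179 of them with 5 false calls, and DESeq2 recovered 171 with 5. Exact permutation tests and counting intervals (Poisson, Clopper-Pearson) used Python with scipy 1.17.1. Replicates differed by more than sampling noise (chi-square over its degrees of freedom, 1.75 to 4.12), so none was counted as a copy.

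The chemokines and the gene lists were chosen with earlier results of these data known. Named genes were all 10 chemokines, AHR, every tested ligand and receptor, and from each other list up to 3 rises and 3 falls that both constructs shared, given an average log2 CPM of 1 or more. Exceptions among the tested genes of these lists are marked, and not every gene the rule picks is reported here. Promoters are from RefSeq and positions from GENCODE 44, in which 60507 of 60649 gene identifiers were found. Bases inside the GENCODE gene were left out of the longer printed promoters. Alternatives were DESeq2, its size factors in edgeR, other count filters, fits of only the groups compared, a replicate block, leaving out each library, stricter thresholds and summed paralogs; canonical transcript length was added after seeing the data.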

Additional observations from a re-analysis of the deposited data

Results flagged for a closer look

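Among the 5 chemokines, 4 other ligands and 4 receptors tested, 7 differed between the constructs by the edgeR test of shAHR#3 against shAHR#2 itself. Over all genes tested, 42.3% were called in that comparison. On the log2 scale CXCL8 was at -1.23, CXCL2 at -0.88, CXCL16 at -0.85 and CXCL1 at -0.84 (adjusted p = 7.04e-18, 0.00168, 0.032 and 7.33e-09). As given above, the call for CXCL16 was lost with DESeq2 (adjusted p = 0.0812) and without any one of most knockdown libraries. CXCR4 was at -0.98 (adjusted p = 0.00601), so that the rise seen with shAHR#2 was larger than the value with shAHR#3. The falling ligands CX3CL1 and CCL28 were at 1.11 and 0.41 (adjusted p = 0.0332 and 0.00771), which is a smaller fall with shAHR#3. The call for CX3CL1 was lost without shAHR#2 replicate 1 (log2 fold change 0.77, adjusted p = 0.198), without shAHR#2 replicate 3 (0.89, adjusted p = 0.131) or without shAHR#3 replicate 2 (0.94, adjusted p = 0.12), and that for CCL28 without shAHR#2 replicate 1 (0.26, adjusted p = 0.123).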

How the results depend on the processing

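The counts of chemokines called (5 with shAHR#2, 4 with shAHR#3 and 4 between the constructs) were within 1.5 times of these values with DESeq2, its size factors, no filter, fits of only the groups compared and an adjusted p under 0.01. A mean of at least 50 counts left CXCL1 and CXCL8, so that 2 were called in each of the 3 comparisons, higher with either construct and lower with shAHR#3 than with shAHR#2. An absolute log2 fold change of at least 1 left 1 call, a lower level, between the constructs (CXCL8). It also left 12 of 54, 5 of 43 and 6 of 46 calls in the related lists and 3 of 17, 3 of 17 and 4 of 11 among the chromosome 4 neighbours. With the GRO paralogs summed, 3 features were called and higher with shAHR#2, because 3 genes became 1. Against the summed rise of 1.03 with shAHR#3, CXCL2 on its own was at -0.14, and against -0.83 between the constructs CXCL3 on its own was at -0.50 (adjusted p = 0.271). The ratio of CXCL8 to CXCL1 per kb moved from 1.64 to 2.23 with canonical lengths.

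Leaving out each library gave 5 to 5, 3 to 4 and 3 to 4 calls, and CXCL16 was the gene lost. CXCL2 with shAHR#3, called in none of these fits, ranged from -0.48 to 0.14 and was above 0 without replicate 3 of pLKO-GFP (0.078) or of shAHR#3 (0.14). CXCR4 with shAHR#3, likewise not called, ranged from -0.031 to 0.21 and was below 0 without pLKO-GFP replicate 2 (-0.031) or shAHR#3 replicate 3 (-0.025). The replicate block gave 5, 4 and 4 calls and changed no call of a chemokine. Same-numbered libraries did not deviate together (correlations 0.00314 to 0.0578), so the numbers were not taken as pairs. Under about 20 reads per library, as for CXCL3 and CXCL16, depth limits precision.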
